A study of Homo sapiens with 18 samples.

Results

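The genes described here are a set of 50 germline genes: genes of meiosis, of the piRNA pathway and of germ cell RNA control, together with cancer-testis antigens, whose promoters are typically methylated and silent in most adult tissues. They were chosen by name, and the rows of the deposited gene table with a member's symbol were used. Of the 50 listed genes 39 had a row among 25296 rows, and 23 of those passed the filter on low counts that left 18226 genes for testing. The other 11 listed genes (ASZ1, BRDT, DAZL, DDX4, HORMAD2, SPATA22, SPO11, SYCP1, TDRD1, TDRD9 and TEX101) were not analysed here.

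RNA was sequenced from U2OS, an established human osteosarcoma cell line, in 18 libraries. There were 3 overexpression lines made with the retroviral vector MigR1: one with the empty vector (EV), one with wild-type DNMT3A (WT) and one with mutant DNMT3A (MUT). The series text and the sample labels give different amino acid changes at the same residue for the mutant, so it is called MUT throughout. Each line was studied untreated and 24 h into exposure to 10 µM cytarabine, a cytidine analogue that blocks DNA synthesis. Each of the 6 groups had 3 libraries, described in the labels as biological triplicates. The series text calls the comparison cells vehicle control, while the labels call them untreated. All 3 lines keep the endogenous DNMT3A gene, and the labels do not say whether a line is a clone or a pool. With 1 line per construct, the effect of the construct and the history of the line cannot be told apart.

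DNMT3A and DNMT3B place methyl groups on cytosines of CG dinucleotides, and DNMT1 with UHRF1 copies the marks after replication. In germ cells many meiotic and piRNA genes start from CG-rich promoters that stay unmethylated, and in somatic cells these promoters are methylated and bound by repressors such as E2F6 and MGA. Cancer-testis antigens, many of them on the X chromosome, are often switched on in tumours that have lost methylation. No methylation was measured in the libraries used here, so the values below are RNA levels only.

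The promoters of the genes on which the results turn show how unequally the members are supplied with CG dinucleotides. Each line gives the 250 bases before the RefSeq start nearest to the table's start, 5′ to 3′ on the gene's own strand in GRCh38.p14, with every CG in capitals. STK31, SYCP2 and DMC1 are tested meiotic or piRNA genes, MAEL was read only with cytarabine, and MAGEA4, MAGEA3 and GAGE1 are cancer-testis antigens. These 7 were picked after the values had been seen.

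STK31, chr7:23709969-23710218, plus strand: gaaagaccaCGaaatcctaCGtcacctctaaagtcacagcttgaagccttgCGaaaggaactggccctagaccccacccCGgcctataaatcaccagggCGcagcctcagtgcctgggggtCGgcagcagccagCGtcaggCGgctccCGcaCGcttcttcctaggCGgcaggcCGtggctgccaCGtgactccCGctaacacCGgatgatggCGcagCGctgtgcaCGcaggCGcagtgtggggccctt
SYCP2, chr20:59933638-59933887, minus strand: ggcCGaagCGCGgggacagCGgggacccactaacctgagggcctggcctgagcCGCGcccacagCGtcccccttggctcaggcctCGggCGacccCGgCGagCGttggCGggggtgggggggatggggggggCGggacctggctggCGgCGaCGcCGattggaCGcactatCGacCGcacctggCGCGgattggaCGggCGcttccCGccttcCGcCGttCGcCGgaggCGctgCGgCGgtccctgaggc
DMC1, chr22:38570184-38570433, minus strand: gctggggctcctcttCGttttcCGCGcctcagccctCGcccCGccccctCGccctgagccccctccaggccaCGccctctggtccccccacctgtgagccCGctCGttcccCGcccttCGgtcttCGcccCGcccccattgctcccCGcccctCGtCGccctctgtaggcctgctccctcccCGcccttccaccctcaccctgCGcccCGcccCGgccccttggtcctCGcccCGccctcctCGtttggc
MAEL, chr1:166975332-166975581, plus strand: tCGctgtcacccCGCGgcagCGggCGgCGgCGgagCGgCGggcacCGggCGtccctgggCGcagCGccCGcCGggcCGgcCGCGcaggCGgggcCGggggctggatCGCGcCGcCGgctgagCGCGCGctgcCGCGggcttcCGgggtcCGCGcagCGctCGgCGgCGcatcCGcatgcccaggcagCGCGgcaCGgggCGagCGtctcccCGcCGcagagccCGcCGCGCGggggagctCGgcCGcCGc
MAGEA4, chrX:151912224-151912473, plus strand: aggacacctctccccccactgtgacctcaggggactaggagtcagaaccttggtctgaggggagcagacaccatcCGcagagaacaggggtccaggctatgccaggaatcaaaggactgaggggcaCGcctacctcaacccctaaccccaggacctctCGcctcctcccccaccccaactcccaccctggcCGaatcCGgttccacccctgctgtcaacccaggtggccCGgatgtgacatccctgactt
MAGEA3, chrX:152698544-152698793, plus strand: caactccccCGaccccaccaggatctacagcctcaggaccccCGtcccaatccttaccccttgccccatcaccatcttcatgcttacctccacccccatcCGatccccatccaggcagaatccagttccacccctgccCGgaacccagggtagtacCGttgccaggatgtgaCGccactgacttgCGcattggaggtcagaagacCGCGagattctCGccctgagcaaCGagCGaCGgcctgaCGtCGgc
GAGE1, chrX:49598763-49599012, plus strand: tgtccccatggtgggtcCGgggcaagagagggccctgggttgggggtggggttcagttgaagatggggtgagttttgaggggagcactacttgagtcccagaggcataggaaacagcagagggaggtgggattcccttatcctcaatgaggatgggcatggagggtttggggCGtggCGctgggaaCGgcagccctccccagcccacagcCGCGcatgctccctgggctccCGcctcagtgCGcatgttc

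RefSeq promoters were matched for 31 of the 39 members with a row. The stretch of MAEL held 51 CG dinucleotides, that of SYCP2 33, that of DMC1 23 and that of STK31 19. MAGEA3 had 15, GAGE1 8 and MAGEA4 6. The matched GAGE1 start lay 9517 bases inside the span of its row, and that of SYCE1 1545 bases, while the other 29 starts were within 1 kb. The median observed over expected CG was 0.808 in 22 meiotic, piRNA and other germ cell members and 0.432 in 9 cancer-testis members, against 0.558 over 35093 RefSeq promoters. Among the first 22, the median was 0.758 in the 8 that were called higher with cytarabine in at least 1 line and 0.865 in the other 14. Of those 14 only SYCE2, REC8 and MSH5 were tested, and the rest, MAEL and BOLL among them, had too few counts. The 14 are therefore not a group shown to lack a response. The 250 bases before MAGEA3 and before MAGEA6 were identical, with 0 differences.

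**Figure D1:**
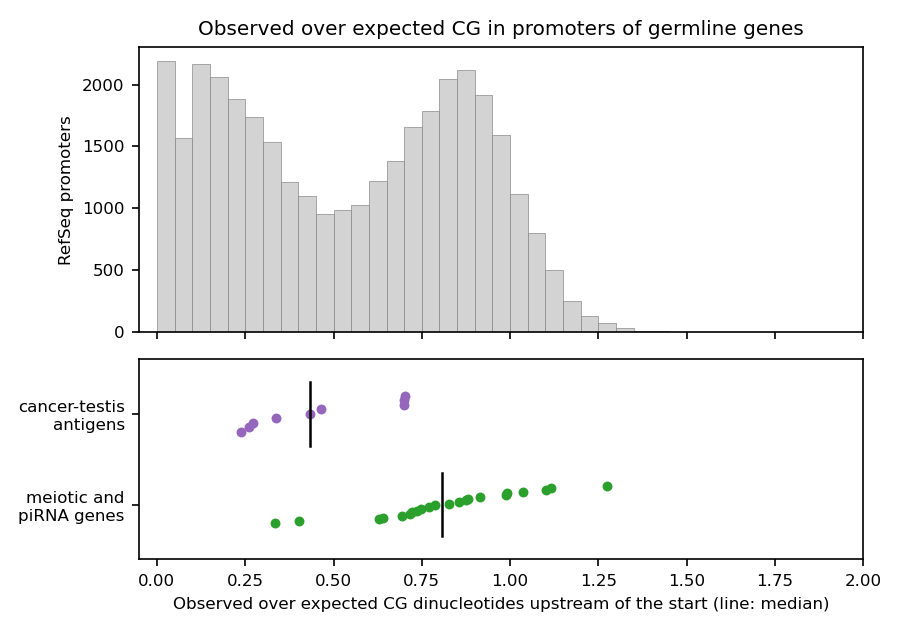
Observed over expected CG dinucleotides in the bases before the start, for all RefSeq promoters (upper panel, number of promoters per bin) and for matched germline members (lower panel, 1 point per gene, vertical line at the median). The meiotic and piRNA members have their median at 0.808 and the cancer-testis members at 0.432.

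The letters GCGGGA, the core of the sequence bound by E2F factors, were searched on both strands of these 250 bases. They were in 11 of the 22 meiotic, piRNA and germ cell promoters and in 1 of the 9 cancer-testis promoters, against 23.5% of all RefSeq promoters. GCGGGA itself holds a CG, and the 22 promoters have a median of 21.5 CG dinucleotides against 11 over all promoters. These shares were therefore not taken at equal CG content. Matches were in 4 of the 8 called higher with cytarabine and in 7 of the other 14. The promoters of STK31, SYCP2 and SMC1B each held 2 matches. CACGTG, the letters bound by MAX and MGA, were in STK31 and TDRD12 among the members and in 6.34% of all promoters. The motifs can share at most 1 base. A match is a description of letters and not a measured site.

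Library totals ran from 15391484 to 21850378 estimated counts, and 1 count was worth 0.0428 to 0.0629 CPM (counts scaled to TMM-adjusted totals of 15899600 to 23384100). Replicates correlated at 0.967 to 0.991 over genes. DNMT3A itself, which takes reads from the vector and from the endogenous gene alike, was at 26.9, 27.5 and 26.2 CPM in untreated EV libraries. It was at 131, 129 and 139 CPM in untreated WT and at 500, 615 and 254 CPM in untreated MUT libraries, so that the groups did not overlap and MUT replicate 3 stood below its partners. DNMT3A was thus also 1.77 ± 0.19 higher on the log2 scale in MUT than in WT (standard error, edgeR adjusted p = 2.04e-06), and the kind of DNMT3A and its level cannot be told apart. Of 8 mesenchymal markers 7 had a row, with VIM, SPARC, COL1A1, RUNX2 and CDH2 above 35 CPM in every group. COL1A2 was at 0.458 to 7.97 CPM over the group means, and NT5E was under 1 CPM. The summed level of the 6 germ cell identity markers with a row, of 12 listed, was 5.97 to 13.3 CPM per library. Of these, POU5F1, NANOS3 and ACR stayed under 0.5 CPM in every group mean. ZP3 was at 3.17 to 6.85, AMH at 1.71 to 3.25 and SALL4 at 0.433 to 2.82 CPM. Leukocyte markers summed to at most 1.6 CPM, and 4 epithelial markers reached 12.9 to 33.5 CPM in sum, with CLDN4 at 10.7 to 20.2 CPM.

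The members fell into 2 levels. Per kilobase of exon, 7 cancer-testis antigens were far above all other members in untreated EV cells: MAGEA4 had a level of 217 CPM per kb, MAGEA1 108, MAGEB2 103, MAGEA6 101, PRAME 95.4, MAGEA12 70.2 and MAGEA3 45.3 CPM per kb. The next members were TDRKH, SYCE1 and HORMAD1, at 1.80, 1.77 and 1.76 CPM per kb. GAGE1, with 0 to 3 counts per EV library, was the low exception among the tested cancer-testis antigens. The set was therefore not uniformly silent in these cells. By role, 8 of 10 listed cancer-testis antigens were tested, 6 of 16 piRNA and Tudor genes, 4 of 8 genes of the synaptonemal complex and chromosome axis, 2 of 4 meiotic cohesins, 2 of 7 recombination genes and 1 of 5 others. In bulk RNA, few cells with much of an RNA and many cells with little of it cannot be told apart. The MAGE and GAGE families hold near-identical copies, whose reads the counting could have shared among them. Fractional values in all 18 libraries for MAGEA4, SYCE1 and MSH5 show reads shared between features. TDRKH had them in 17 libraries, PRAME in 16, MAGEA6 in 15 and MAGEA12 in 14. Tested members that overlap other genes on either strand are SYCE1, TDRKH, STAG3, REC8, SYCE2, MSH5, MAGEA12, STK31, MAGEA4, PRAME, TEX14 and GAGE1.

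**Figure D2:**
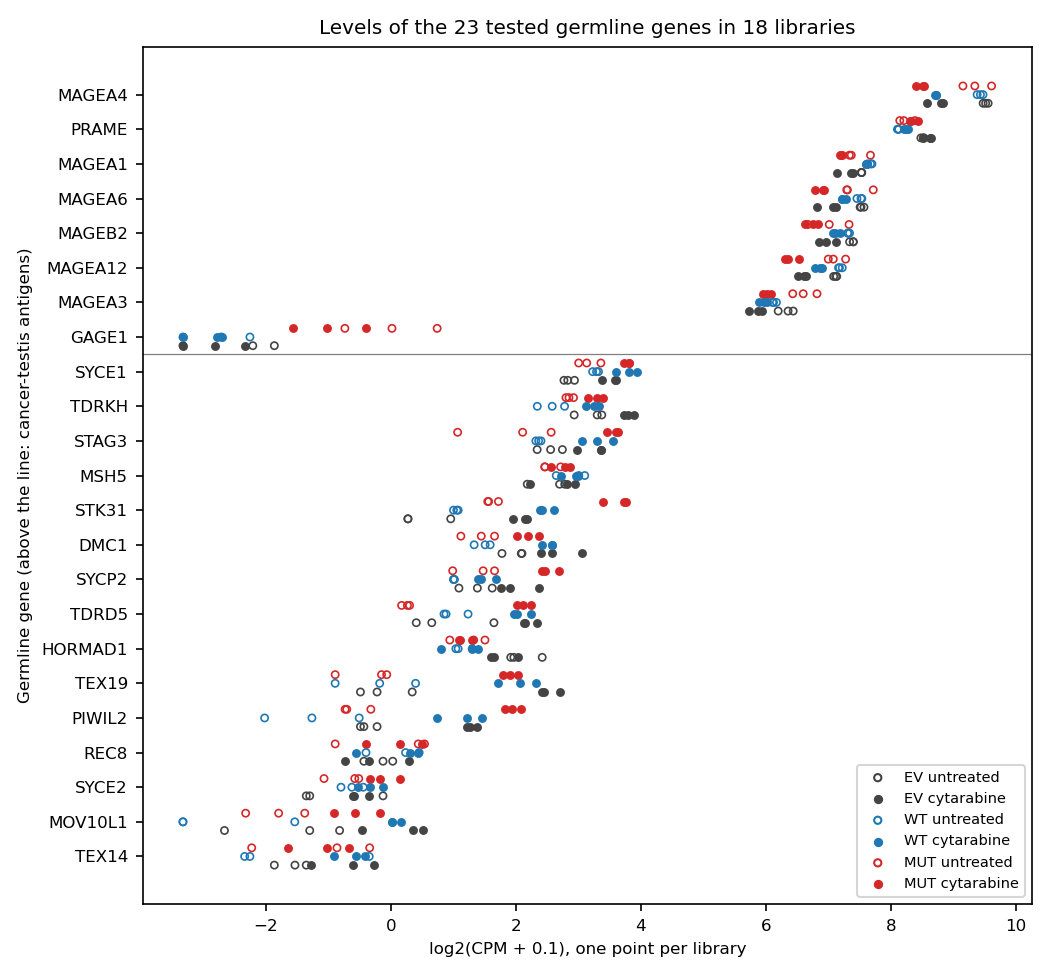
Level of each of the 23 tested germline genes as log2(CPM + 0.1), 1 point per library, by line (colour) and treatment (open untreated, filled cytarabine), with cancer-testis antigens above the horizontal line. The 7 abundant antigens lie apart from the rest, GAGE1 is higher in the MUT libraries, and filled points lie right of open ones for genes such as STK31, TEX19 and PIWIL2.

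The first question was whether the lines with added DNMT3A differed from the empty-vector line in these genes without the drug. Among 23 tested members 8 differed between MUT and EV (3 higher, 5 lower), where 19.9% of all tested genes did (9.88% higher, 10% lower). GAGE1, STK31 and MAGEA3 were higher in MUT, and HORMAD1, TDRD5, DMC1, MAGEB2 and PRAME were lower. GAGE1 passed the filter on low counts only through MUT libraries. Its place among the tested members is therefore not independent of its calls, here and under cytarabine. Between WT and EV 4 members differed (1 higher, 3 lower), against 11.7% of all genes (4.3% higher, 7.36% lower): SYCE1 was higher and HORMAD1, TDRKH and PRAME were lower. Between MUT and WT 4 differed (3 higher, 1 lower), against 21.2% of all genes (11.7% higher, 9.54% lower), with GAGE1, STK31 and MAGEA3 higher and TDRD5 lower in MUT. The median log2 difference of the 23 members was -0.08 for MUT against EV, -0.06 for WT against the same EV libraries and -0.05 between MUT and WT, with the median of all genes at 0.00 in each. With only the 6 libraries of MUT and EV in the fit none of the 19 members then tested was called, and with the authors' scaling 5 were. With only the 6 libraries of MUT and WT, 1 member was called. Leaving out a library gave 4 calls between MUT and EV without EV replicate 1 and 5 without EV replicate 3 or MUT replicate 2, and 2 calls between MUT and WT without WT replicate 2 or 3.

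**Figure D3:**
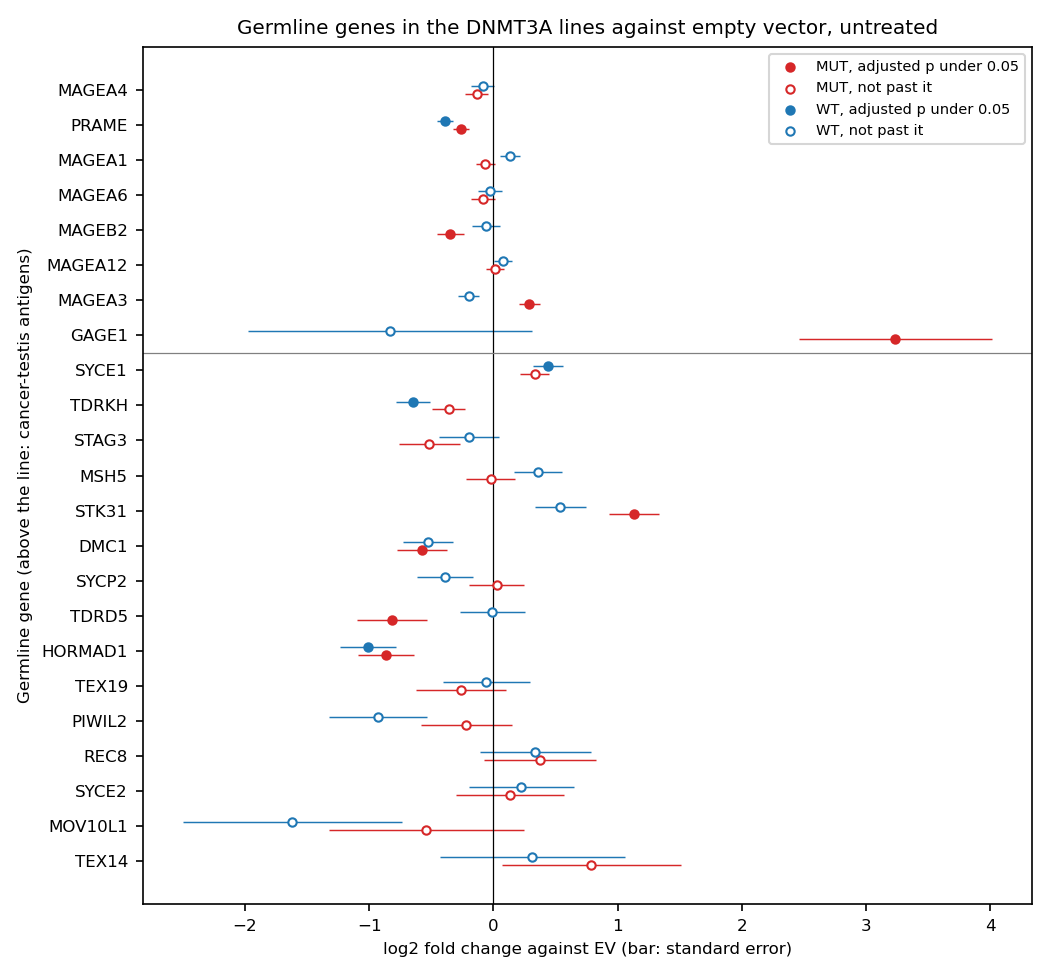
Log2 fold change of the 23 tested germline genes in untreated WT (blue) and MUT (red) cells against untreated EV cells, with bars of 1 standard error and filled points for adjusted p under 0.05. GAGE1 in MUT lies at 3.24 and STK31 in MUT at 1.13, while PRAME and HORMAD1 lie below 0 in both lines.

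STK31, a serine/threonine kinase with a Tudor domain found in the germ line (chr7:23710167-23832514, plus strand), was at 1.11, 1.11 and 1.84 CPM in untreated EV libraries. It was at 2.01, 1.90 and 1.98 CPM in WT and at 2.86, 2.83 and 3.20 CPM in MUT. The 3 groups did not overlap, in the order EV, WT and MUT. MUT exceeded EV by 1.13 ± 0.20 on the log2 scale (edgeR adjusted p = 0.000619) and WT by 0.59 ± 0.19 (edgeR adjusted p = 0.0304). The excess of WT over EV, 0.54 ± 0.21, did not pass the test. The difference from WT lost its call without MUT replicate 3 (adjusted p = 0.065) and without any single WT library.

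TDRD5, a Tudor protein of the germ cell granules needed for transposon silencing (chr1:179591613-179691273, plus strand), was at 1.23, 3.04 and 1.48 CPM in untreated EV. It was at 2.26, 1.75 and 1.70 CPM in WT and at 1.10, 1.13 and 1.03 CPM in MUT, below every library of the other groups. MUT was lower than EV by -0.81 ± 0.28 (edgeR adjusted p = 0.0483). Without EV replicate 2 the difference was -0.31 (adjusted p = 0.509), so its size rests on that library. Counting that setting, the call was lost under 10 of the 13 alternatives run. Against WT the difference was -0.81 ± 0.28 (edgeR adjusted p = 0.0457), and it lost its call under 12 of the 13 alternatives run. TDRKH, which tethers PIWI proteins to mitochondria, was at 9.76, 7.54 and 10.3 CPM in EV, at 5.88, 4.97 and 6.76 CPM in WT and at 6.87, 7.11 and 7.48 CPM in MUT. It was lower in WT than in EV by -0.64 ± 0.14 (edgeR adjusted p = 0.0036), and MUT, at -0.36 ± 0.14 against EV, did not pass the test although its libraries lay below those of EV.

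HORMAD1, which marks unsynapsed chromosome axes (chr1:150698060-150720889, minus strand), was at 5.26, 3.68 and 3.81 CPM in untreated EV. It was at 2.01, 1.96 and 2.36 CPM in WT and at 2.41, 1.82 and 2.74 CPM in MUT, so that EV lay above both other groups. The log2 differences from EV were -1.01 ± 0.22 in WT (edgeR adjusted p = 0.00506) and -0.87 ± 0.22 in MUT (edgeR adjusted p = 0.0101). The MUT call was lost without EV replicate 1 (-0.68, adjusted p = 0.0685). SYCE1, a central element protein of the synaptonemal complex, was at 6.72, 7.01 and 7.56 CPM in EV, at 9.27, 9.68 and 9.90 CPM in WT and at 8.68, 7.92 and 10.2 CPM in MUT. WT exceeded EV by 0.44 ± 0.12 (edgeR adjusted p = 0.02), while MUT, 0.33 ± 0.12 above EV, did not pass the test. The WT call was lost without EV replicate 1 or 2 or WT replicate 2 or 3 (adjusted p up to 0.0874). DMC1, the meiotic recombinase that pairs homologous DNA (chr22:38518949-38570287, minus strand), was at 4.15, 3.33 and 4.18 CPM in EV, at 2.75, 2.91 and 2.42 CPM in WT and at 3.06, 2.08 and 2.63 CPM in MUT. The MUT difference from EV, -0.58 ± 0.20, was at the threshold (edgeR adjusted p = 0.0497) and was lost under 9 of 13 alternatives. WT had nearly the same value, -0.53 ± 0.20, without passing the test.

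GAGE1, a cancer-testis antigen of an X-linked gene cluster (chrX:49589496-49608537, plus strand), gave 5 counts over the 3 untreated EV libraries, 3 over WT and 51 over MUT. The MUT libraries stood at 0.501, 1.57 and 0.914 CPM, against 0.117, 0.175 and 0 CPM in EV and 0, 0.0529 and 0.110 CPM in WT. No MUT library overlapped the other groups. At equal library totals MUT was 9.65 times EV (95% exact counting interval 3.88 to 31.0) and 18.3 times WT (5.92 to 91.7), intervals that cover counting error only. The fitted log2 difference, which depends on the prior count, was 3.24 ± 0.78 from EV (edgeR adjusted p = 0.0062) and 4.07 ± 0.84 from WT (edgeR adjusted p = 0.00178). Its call held in all 11 of the alternatives that tested it, and a filter of at least 1 CPM in 3 libraries left it out. EV and WT libraries held at most 3 counts each, so GAGE1 entered the test only through its MUT libraries. The call is thus not independent of the filter. The neighbouring GAGE copies are near-identical, and GAGE2A, which overlaps it on the same strand and belongs to the list of other germline genes, differed between MUT and EV by -0.55 ± 0.27 (edgeR adjusted p = 0.165).

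Among the abundant antigens PRAME, a cancer-testis antigen of chromosome 22 (chr22:22547701-22559362, minus strand), was at 356, 368 and 366 CPM in untreated EV. It was at 278, 278 and 275 CPM in WT and at 295, 282 and 334 CPM in MUT, so that EV lay above both. The log2 differences from EV were -0.39 ± 0.07 in WT (edgeR adjusted p = 0.000449) and -0.26 ± 0.07 in MUT (edgeR adjusted p = 0.00885). Without MUT replicate 2 the second was -0.18 (adjusted p = 0.0649). MAGEA3 (chrX:152698752-152702348, plus strand) was at 73.1, 86.4 and 81.6 CPM in EV, at 69.4, 71.7 and 68.7 CPM in WT and at 86.0, 96.5 and 113 CPM in MUT. MUT exceeded WT by 0.49 ± 0.09 (edgeR adjusted p = 0.000566) without overlap, and exceeded EV by 0.29 ± 0.09 (edgeR adjusted p = 0.0243) with overlapping libraries. Without EV replicate 1 the excess over EV was 0.23 (adjusted p = 0.129), without EV replicate 3 it was 0.30 (adjusted p = 0.0636), and without MUT replicate 3 it was 0.20 (adjusted p = 0.0663). MAGEB2 was at 161, 168 and 168 CPM in EV, at 161, 158 and 159 CPM in WT and at 129, 102 and 161 CPM in MUT. Its MUT difference from EV, -0.35 ± 0.11 (edgeR adjusted p = 0.0326), became -0.17 without MUT replicate 2 (adjusted p = 0.186) and was also lost without MUT replicate 1 or any EV library. MUT replicate 3 was the highest MUT library for MAGEA1, MAGEA3, MAGEA4, MAGEA6, MAGEA12, MAGEB2 and PRAME. It was the lowest for DNMT3A, and also for STAG3, DNMT1 and MGA. The part of DNMT3A level, or of a wider deviation of that library, in these differences was not tested.

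Between the lines under cytarabine the calls fell partly on other genes. MUT and EV differed in 4 members (2 higher, 2 lower), against 14% of all genes (6.85% higher, 7.13% lower). WT and EV differed in 4 (2 higher, 2 lower), against 16.5% (7.41% higher, 9.12% lower). MUT and WT differed in 8 (4 higher, 4 lower), against 19.8% of all genes (10.4% higher, 9.48% lower). GAGE1, STK31, PRAME, MAGEB2 and TDRKH were called in at least 1 comparison of untreated lines and 1 of treated lines, while SYCP2, PIWIL2, MAGEA1, MAGEA6 and MAGEA12 were called between treated lines only. Without MUT replicate 1 of the treated libraries, 4 members differed between MUT and WT and 2 between MUT and EV. Without WT replicate 2 there were 5 between MUT and WT. The count between MUT and EV was also 2 without EV replicate 3 or MUT replicate 2, and the count between WT and EV was 2 without EV replicate 1.

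Treated STK31 levels were 4.45, 4.31 and 3.76 CPM in EV, 5.10, 6 and 5.22 CPM in WT and 10.5, 13.5 and 13.1 CPM in MUT. The order EV, WT and MUT was that of untreated cells, again without overlap. MUT exceeded EV by 1.57 ± 0.16 (edgeR adjusted p = 3.73e-06) and WT by 1.18 ± 0.16 (edgeR adjusted p = 2.83e-05), and both calls held in every alternative run. SYCP2, a lateral element protein of the synaptonemal complex (chr20:59863563-59933656, minus strand), was at 5.27, 6.32 and 5.40 CPM in treated MUT, at 3.11, 2.54 and 2.61 CPM in WT and at 3.67, 3.31 and 5.09 CPM in EV. MUT exceeded WT by 1.04 ± 0.20 (edgeR adjusted p = 0.00126). Its excess over EV, 0.48, did not pass the test. PIWIL2, a PIWI protein that binds piRNAs, was at 4.13, 3.73 and 3.44 CPM in treated MUT, at 1.58, 2.22 and 2.66 CPM in WT and at 2.30, 2.5 and 2.22 CPM in EV. All MUT libraries were above those of WT and EV, by 0.81 ± 0.27 against WT (edgeR adjusted p = 0.0403), a call lost on leaving out MUT replicate 1, 2 or 3 or WT replicate 1 or 2 (adjusted p up to 0.175, without WT replicate 1). TDRKH was below EV in both lines, by -0.52 ± 0.13 in MUT and -0.57 ± 0.13 in WT (edgeR adjusted p = 0.00915 and 0.00459), and the MUT call was lost without MUT replicate 2 (adjusted p = 0.0531).

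MAGEA1, MAGEA6, MAGEA12 and MAGEB2 had their highest treated mean in WT and their lowest in MUT. MAGEA12 was at 91.1, 99.1 and 97.0 CPM in treated EV, at 117, 119 and 111 CPM in WT and at 78.7, 81.1 and 91.8 CPM in MUT. MUT was below WT by -0.46 ± 0.07 (edgeR adjusted p = 0.000199), and WT was above EV by 0.27 ± 0.07 (edgeR adjusted p = 0.0165), a call lost without EV replicate 1 or WT replicate 1 or 2 (adjusted p up to 0.0761). MAGEA1 was at 141, 168 and 164 CPM in EV, at 193, 193 and 195 CPM in WT and at 147, 146 and 149 CPM in MUT. Its log2 differences were -0.40 ± 0.08 between MUT and WT (edgeR adjusted p = 0.00143) and 0.30 ± 0.08 between WT and EV (edgeR adjusted p = 0.0146). The second was 0.22 without EV replicate 1 (adjusted p = 0.0795), the library in which MAGEA1 was lowest. MAGEA6 and MAGEB2 were lower in MUT than in WT by -0.36 ± 0.10 and -0.38 ± 0.11 (edgeR adjusted p = 0.0124 and 0.0195). Both calls were lost without MUT replicate 1 or WT replicate 2, and that of MAGEB2 also without MUT replicate 2 (adjusted p up to 0.103). PRAME kept its lower level in both lines, at -0.24 ± 0.07 in MUT and -0.35 ± 0.07 in WT against EV (edgeR adjusted p = 0.0195 and 0.000971), and the MUT call was lost without EV replicate 1 or 3 or MUT replicate 1 or 2 (adjusted p up to 0.0949). Treated GAGE1 had 29 counts over the MUT libraries against 3 over EV and 2 over WT, which is 8.69 times EV (95% exact counting interval 2.69 to 44.6) and 13.2 times WT (3.35 to 114). Both differences were called by edgeR (adjusted p = 0.0312 and 0.0133), and both lost the call without MUT replicate 1 (adjusted p = 0.13 and 0.0701). That from EV was also lost without MUT replicate 3 or EV replicate 2 or 3 (adjusted p up to 0.113), and that from WT without WT replicate 3 (adjusted p = 0.0673).

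With cytarabine, every called gene of meiosis, the piRNA pathway or germ cells was higher and every called cancer-testis antigen was lower after 24 h. SYCE1, TDRD5, TEX19, PIWIL2, STK31, STAG3, DMC1 and TDRKH were higher in all 3 lines, and MAGEA4, MAGEA6 and MAGEA12 were lower in all 3, while REC8, MSH5, HORMAD1, SYCE2, TEX14, PRAME and GAGE1 passed the test in none. Of the 23 tested members, those called numbered as follows: EV cells had 16 calls, 10 of them higher, WT cells had 12, 9 of them higher, and MUT cells had 15, 9 of them higher. The drug also changed 49.1%, 49% and 56.3% of all tested genes in those lines, so a call by itself sets a member apart from few genes. Among the 15 tested genes of meiosis, the piRNA pathway and germ cells, 10, 9 and 9 were higher and 0 lower, with median log2 changes of 0.70, 0.89 and 0.79 in EV, WT and MUT. These counts include MOV10L1 in EV and WT, which passed the filter on low counts only through treated libraries. Its place among the tested members is therefore not independent of its calls. Among all genes 26.1%, 26.3% and 30.4% were higher, and among the 7985 genes no more abundant than SYCE1, at most 10.7 CPM on average, 30.3%, 28.3% and 33.8% were. Among the 8 tested cancer-testis antigens 6, 3 and 6 were lower and 0 higher, with medians of -0.50, -0.23 and -0.59. Among all genes 22.9%, 22.7% and 25.9% were lower, and among the 3569 genes at least as abundant as MAGEA3, 72.2 CPM on average, 51.5%, 49.3% and 54.8% were. The 3 of 8 in WT are a smaller share than among those genes, although the 8 include GAGE1, which lies far below that abundance. The summed germ cell identity markers were at 8.24 to 10.6 CPM untreated and 10.7 to 13.3 CPM treated in EV. In WT these sums were 8.03 to 8.83 and 9.13 to 10.4 CPM, and in MUT 5.97 to 8.62 and 9.15 to 12.6 CPM. Of the 4 germ cell markers tested, 1 was called higher in each line, and 2 were called lower in WT. The sums of 4 epithelial markers were 16 to 18.8 CPM untreated and 28.6 to 29.5 CPM treated in EV, 12.9 to 14.2 and 14.9 to 22.4 CPM in WT, and 19.0 to 21.8 and 24.9 to 33.5 CPM in MUT. The sums of 7 mesenchymal markers were 3162 to 3278 CPM untreated and 2279 to 2372 CPM treated in EV, 3415 to 3427 and 2312 to 2396 CPM in WT, and 3370 to 3953 and 2439 to 2743 CPM in MUT. Treated and untreated sums of these germ cell, epithelial and mesenchymal markers did not overlap in any line. The part of these markers in the changes of the members was not tested. The split by role and these abundance limits were made after the values had been seen, and the 3 untreated groups are the controls of both the drug and the line comparisons.

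**Figure D4:**
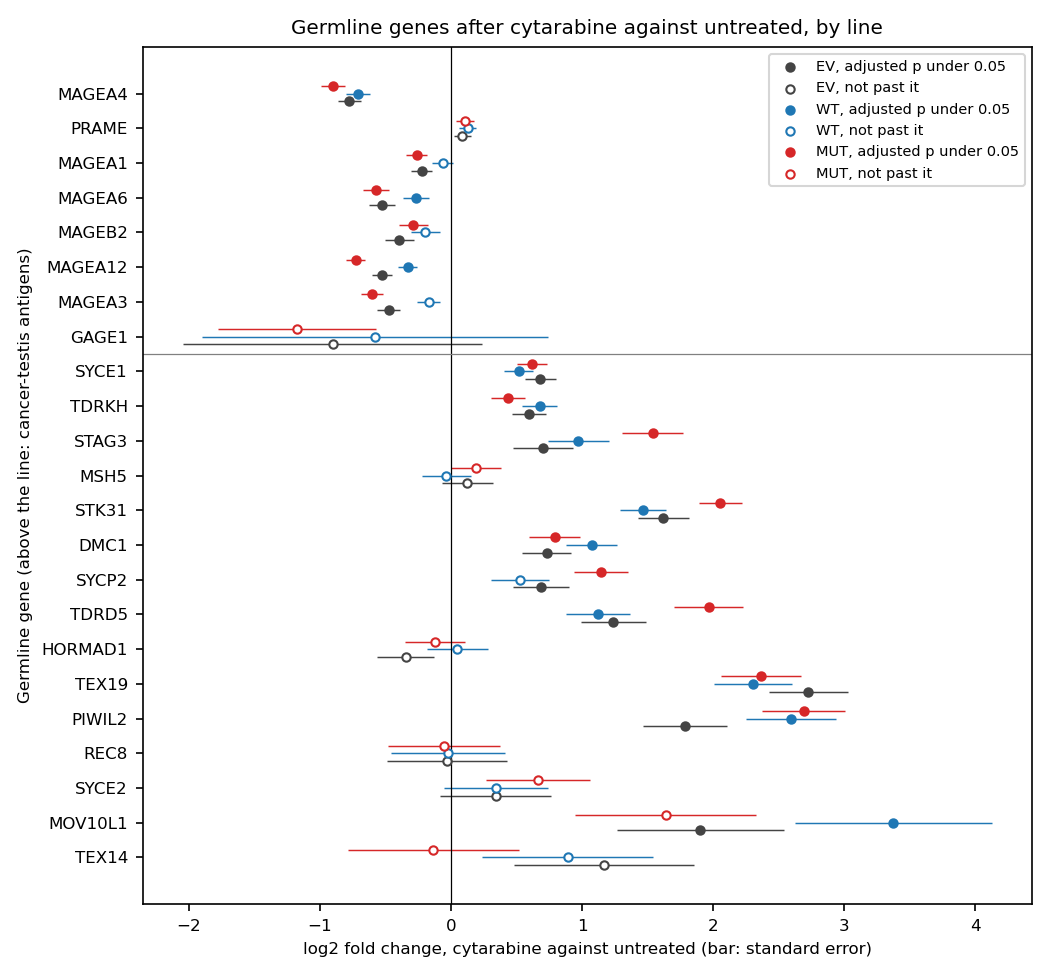
Log2 fold change of the 23 tested germline genes between cytarabine-treated and untreated cells of each line, with bars of 1 standard error and filled points for adjusted p under 0.05. All called antigens above the horizontal line lie left of 0 and all called meiotic and piRNA genes below it lie right of 0.

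All 6 tested piRNA and Tudor genes were higher in EV and in WT, and 5 were in MUT, with medians of 1.70, 1.88 and 2.01. Among all genes 26.1%, 26.3% and 30.4% were higher. The 6 include MOV10L1, which entered the test only through treated libraries. TEX19, a mammalian germ cell protein that restrains retrotransposons (chr17:82359247-82363777, plus strand), went from 0.759, 1.17 and 0.615 CPM to 6.41, 5.37 and 5.22 CPM in EV. In WT it went from 0.785, 1.22 and 0.440 CPM to 4.08, 3.19 and 4.88 CPM, and in MUT from 0.802, 0.440 and 0.857 CPM to 4, 3.35 and 3.66 CPM. Every treated library was above every untreated one, by 2.73 ± 0.30, 2.30 ± 0.30 and 2.36 ± 0.31 on the log2 scale (edgeR adjusted p = 4.36e-07, 3.22e-06 and 2.46e-06).

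PIWIL2 rose from 0.643, 0.759 and 0.615 CPM in untreated EV, 0.147, 0.317 and 0.605 CPM in WT and 0.702, 0.503 and 0.514 CPM in MUT to the treated levels given above. The changes were 1.79 ± 0.32, 2.59 ± 0.34 and 2.69 ± 0.32 in EV, WT and MUT (edgeR adjusted p = 0.000118, 4.47e-06 and 6.69e-07), with no overlap in any line. STK31 rose by 1.62 ± 0.19, 1.46 ± 0.18 and 2.06 ± 0.17 (edgeR adjusted p = 1.28e-06, 1.55e-06 and 6.38e-09), and all 3 calls held in every alternative run. TDRD5 reached 4.30, 4.31 and 4.96 CPM in treated EV, 4.64, 3.84 and 3.96 CPM in WT and 4.61, 4.21 and 3.97 CPM in MUT. The 3 treated groups overlapped each other and lay above all untreated libraries, with changes of 1.24 ± 0.25, 1.12 ± 0.24 and 1.97 ± 0.26 (edgeR adjusted p = 0.000357, 0.000816 and 3.38e-06). MOV10L1, the helicase that feeds transcripts into piRNA production, had few counts: 14, 5 and 10 over untreated EV, WT and MUT and 65, 58 and 40 over the treated groups. No untreated library held more than 8 counts of MOV10L1, so its calls are not independent of the filter. The treated libraries of MOV10L1 were at 1.17, 0.624 and 1.33 CPM in EV, at 1.02, 0.919 and 0.919 CPM in WT and at 0.791, 0.575 and 0.436 CPM in MUT, above all untreated libraries of the same line. The change was called in EV (1.90 ± 0.64, edgeR adjusted p = 0.0179) and WT (3.37 ± 0.75, edgeR adjusted p = 0.000957), and was 1.64 in MUT without passing the test. The EV call was lost without untreated replicate 1 (1.42, adjusted p = 0.0986) or treated replicate 3 (1.69, adjusted p = 0.0694). TDRKH, reaching 13.2, 14.8 and 13.8 CPM in EV, 9.46, 8.65 and 10.0 CPM in WT and 10.5, 8.76 and 9.76 CPM in MUT, rose by 0.60 ± 0.13, 0.68 ± 0.14 and 0.43 ± 0.13 (edgeR adjusted p = 0.000773, 0.000367 and 0.00925).

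Of the tested structural and recombination genes of meiosis, STAG3, SYCE1 and DMC1 rose in all 3 lines and SYCP2 in EV and MUT. STAG3, a meiotic cohesin subunit (chr7:100177563-100221489, plus strand), went from 6.60, 4.97 and 5.78 CPM to 10.2, 7.74 and 10.2 CPM in EV. In WT it went from 5.05, 5.19 and 4.89 CPM to 11.7, 9.78 and 8.22 CPM, and in MUT from 5.82, 4.21 and 2.00 CPM to 10.9, 12.4 and 12 CPM. The groups were separate in each line, with changes of 0.70 ± 0.23, 0.97 ± 0.23 and 1.54 ± 0.23 (edgeR adjusted p = 0.016, 0.00159 and 1.61e-05). The EV call was lost without untreated replicate 2 (0.60, adjusted p = 0.0734) or treated replicate 3 (0.64, adjusted p = 0.0559). SYCE1 reached 12, 10.2 and 11.8 CPM in EV, 13.9, 12.1 and 15.2 CPM in WT and 14, 13.2 and 14 CPM in MUT, a rise of 0.68 ± 0.12, 0.52 ± 0.11 and 0.62 ± 0.11 (edgeR adjusted p = 8.52e-05, 0.000823 and 0.00012). DMC1 reached 8.26, 5.18 and 5.86 CPM in EV, 5.24, 5.89 and 5.90 CPM in WT and 5.05, 4.50 and 3.97 CPM in MUT. Its changes were 0.73 ± 0.19, 1.07 ± 0.19 and 0.79 ± 0.20 (edgeR adjusted p = 0.00316, 0.000125 and 0.002). SYCP2, at 2.98, 2.51 and 2.03 CPM in untreated EV, 1.91, 1.90 and 1.92 CPM in WT and 3.06, 1.89 and 2.68 CPM in MUT, rose in EV by 0.69 ± 0.21 and in MUT by 1.14 ± 0.21 (edgeR adjusted p = 0.0116 and 0.000113). In WT it was 0.52 higher without passing the test, and the EV call was lost without untreated replicate 3 (0.56, adjusted p = 0.0634) or treated replicate 3 (0.48, adjusted p = 0.0974).

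Some meiotic genes did not pass the test in any line. REC8, the meiotic kleisin subunit of cohesin, had log2 changes of -0.03 ± 0.46, -0.02 ± 0.43 and -0.05 ± 0.43 in EV, WT and MUT, and its libraries lay between 0.440 and 1.35 CPM throughout. MSH5, which stabilises crossovers with MSH4, had changes of 0.13 ± 0.19, -0.04 ± 0.19 and 0.19 ± 0.19. HORMAD1, SYCE2 and TEX14, a protein of germ cell bridges, were called in no line either. HORMAD1, at 3.03, 2.93 and 4.02 CPM in treated EV, had a log2 change of -0.35 there, and its treated WT and MUT libraries lay between 1.64 and 2.54 CPM. The standard errors of REC8, SYCE2 and TEX14 were 0.40 to 0.69, so that changes of the size seen in SYCE1 were not detectable for them at this depth.

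Of the 7 abundant antigens MAGEA4, MAGEA6 and MAGEA12 fell in all 3 lines. MAGEA4 (chrX:151912509-151925171, plus strand), the most abundant member, went from 750, 730 and 710 CPM to 380, 445 and 454 CPM in EV. In WT it went from 709, 689 and 664 CPM to 416, 422 and 422 CPM, and in MUT from 647, 567 and 779 CPM to 336, 367 and 365 CPM. Treated and untreated libraries were separate in every line, with changes of -0.78 ± 0.09, -0.71 ± 0.09 and -0.90 ± 0.09 (edgeR adjusted p = 8.89e-07, 2.53e-06 and 9.75e-08). MAGEA12, untreated at 140, 138 and 135 CPM in EV, 149, 143 and 144 CPM in WT and 135, 127 and 155 CPM in MUT, fell with changes of -0.53 ± 0.07, -0.33 ± 0.07 and -0.73 ± 0.07 (edgeR adjusted p = 8.6e-06, 0.000912 and 1.13e-07). MAGEA6, with levels of 183, 189 and 182 CPM in untreated EV, 183, 185 and 175 CPM in WT and 156, 158 and 210 CPM in MUT, was at 112 to 138 CPM in treated EV, 148 to 155 CPM in WT and 110 to 122 CPM in MUT. Its changes were -0.53 ± 0.10, -0.27 ± 0.10 and -0.57 ± 0.10 (edgeR adjusted p = 0.000159, 0.0266 and 5.07e-05), with no overlap. The WT call was lost without untreated replicate 1 or 2 or treated replicate 1 or 3 (adjusted p up to 0.0777).

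MAGEA3, MAGEA1 and MAGEB2 passed the test in EV and MUT but not in WT. MAGEA3 went to 53.2, 61.4 and 58.8 CPM in EV, 62.5, 64.8 and 59.2 CPM in WT and 61.7, 64.5 and 67.8 CPM in MUT, with changes of -0.48 ± 0.09, -0.17 and -0.60 ± 0.09 (edgeR adjusted p = 0.000176 in EV and 9.05e-06 in MUT). MAGEA1, from 185, 184 and 184 CPM in EV, 197, 204 and 207 CPM in WT and 161, 165 and 204 CPM in MUT, changed by -0.22 ± 0.08, -0.06 and -0.26 ± 0.08 (edgeR adjusted p = 0.0247 in EV and 0.00901 in MUT). Without treated EV replicate 1 the EV change was -0.15 (adjusted p = 0.141), and it also lost its call without any single untreated EV library. MAGEB2, at 116, 124 and 138 CPM in treated EV, 137, 145 and 135 CPM in WT and 98.2, 108 and 114 CPM in MUT, changed by -0.40 ± 0.11, -0.20 and -0.29 ± 0.11 (edgeR adjusted p = 0.00576 in EV and 0.0323 in MUT). The MUT change was -0.14 without untreated replicate 3 (adjusted p = 0.153) and lost its call without untreated replicate 1 or treated replicate 1 or 2, and MUT libraries overlapped. PRAME was the abundant antigen that did not fall: it was at 393, 365 and 399 CPM in treated EV, 309, 302 and 295 CPM in WT and 320, 314 and 346 CPM in MUT, 0.09 to 0.13 above the untreated level on the log2 scale without passing the test. GAGE1 changes, -0.90, -0.58 and -1.17, rested on 2 to 51 counts per group and did not pass the test.

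No member's cytarabine response passed the test of a difference between lines. Between MUT and EV edgeR called 0 members, against 0.214% of all genes, with 1 member at an unadjusted p under 0.05 (STAG3, adjusted p = 0.231) and 0 by DESeq2. Between WT and EV it called 0, against 0.285% of all genes, with 1 at an unadjusted p under 0.05 (MAGEA3, adjusted p = 0.425) and 0 by DESeq2. Between MUT and WT it called 0, against 1% of all genes, with 5 at an unadjusted p under 0.05 (MAGEA12, MAGEA3, MAGEA6, STK31 and TDRD5). The smallest adjusted p was that of MAGEA12, 0.0695, and DESeq2 called MAGEA12 and MAGEA3.

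The 16 members with too few counts for testing included genes read almost only with the drug. MAEL, which acts in the piRNA pathway and whose CG-dense promoter is printed above (chr1:166975582-167022215, plus strand), had 0 counts in all 9 untreated libraries. It had 52 counts over the 9 treated libraries and at least 1 in each (EV 21, WT 18, MUT 13). At equal library totals its treated sum was 5.91 times a floor of 3 counts over the untreated group in EV. The ratio was 5.68 in WT and 3.47 in MUT. These ratios leave out the counting error of the treated sums, so they are not lower bounds. TEX15, which couples piRNAs to transposon methylation in germ cells, had 1 count over the untreated libraries, in MUT, and 17, 5 and 26 over treated EV, WT and MUT. Its treated sums were 4.78 times the same floor in EV and 1.58 times in WT. In MUT the treated sum was 20.8 times the untreated one (95% exact counting interval 3.42 to 854). MEIOB, a single-strand DNA binding protein of meiotic recombination, had 0 counts in untreated cells and 18 in treated EV, 5.06 times the floor, against 1 in WT and 1 in MUT. BOLL, an RNA-binding protein of the DAZ family, had 9 counts in treated WT against 0 untreated, 2.84 times the floor, and 1 and 4 in treated EV and MUT.

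**Figure D5:**
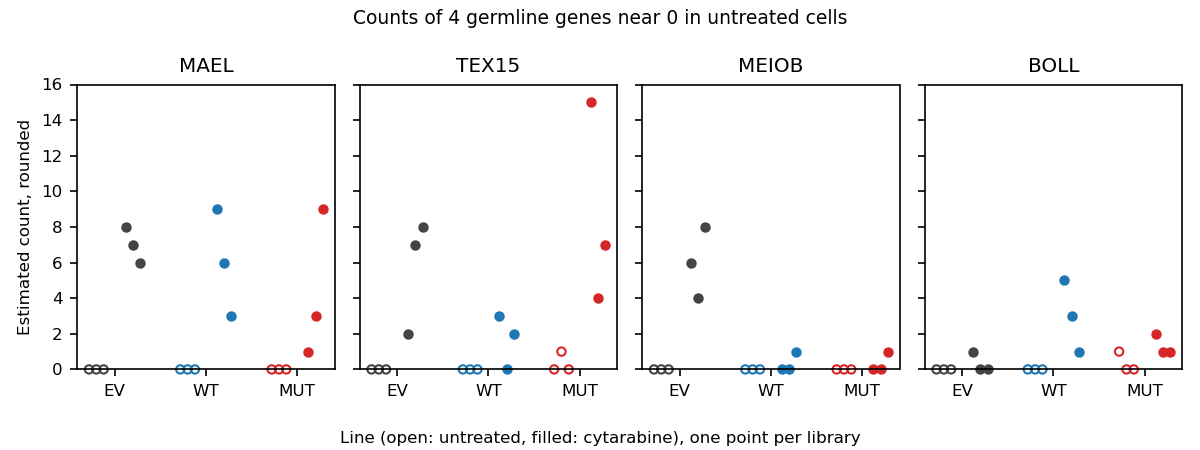
Rounded estimated counts of MAEL, TEX15, MEIOB and BOLL in each library, by line and treatment (open untreated, filled cytarabine). Untreated libraries lie at 0 except for 1 count of TEX15 and 1 of BOLL in MUT, and treated libraries reach 9, 15, 8 and 5 counts.

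When the filter on low counts was dropped, edgeR called MAEL higher in all 3 lines (adjusted p = 0.00474 in EV, 0.00542 in WT and 0.0141 in MUT). It also called MEIOB in EV (adjusted p = 0.0127), TEX15 in EV and MUT (adjusted p = 0.0101 and 0.0147) and BOLL in WT (adjusted p = 0.0316). TEX15 in WT was not called (edgeR adjusted p = 0.0926). Between treated lines MEIOB was not called, either for MUT against EV or for WT against EV (edgeR adjusted p = 0.0791 and 0.0816). The span of MEIOB overlaps LINC00254 on the same strand and FAHD1 on the opposite strand. PIWIL4, a PIWI protein, was the untested member called lower, in WT, with 22 counts untreated and 2 treated (adjusted p = 0.0117). Of the other members with few counts, TDRD6 had 35 counts untreated and 51 treated, MSH4 42 and 36, SYCP3 17 and 18, and PIWIL1 13 and 27. MEI1 had 9 and 41 counts, of which MUT gave 4 and 24. SYCE3 had 13 and 19, with 1 and 11 in EV and 12 and 5 in WT. SMC1B had 10 and 2, RAD21L1 5 and 10, and TDRD12 6 and 11 counts. MAGEC1 and MAGEC2, the cancer-testis antigens with few counts, had 43 and 69, and 33 and 58.

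Among 26 tested genes of the silencing machinery, of 27 listed, EV had 17 lower and 4 higher with cytarabine, WT 16 and 1, and MUT 13 and 3, with medians of -0.37, -0.31 and -0.20. Among all genes 22.9%, 22.7% and 25.9% were lower and 26.1%, 26.3% and 30.4% higher. UHRF1 changed by -0.73 ± 0.09, -0.56 ± 0.09 and -0.33 ± 0.09 and DNMT1 by -0.51 ± 0.08, -0.32 ± 0.08 and -0.19 ± 0.08 in EV, WT and MUT (edgeR adjusted p up to 0.00336 for UHRF1 and 0.0376 for DNMT1). E2F6, a repressor of germline promoters, changed by -0.41 ± 0.08 in each line (edgeR adjusted p up to 0.000237), and L3MBTL2, its partner in a Polycomb complex, by -0.67 ± 0.08, -0.51 ± 0.08 and -0.49 ± 0.08 (edgeR adjusted p up to 3.38e-05). DNMT3B went the other way, by 0.32, 0.28 and 0.31 (edgeR adjusted p = 0.00384, 0.0118 and 0.00372). DNMT3A, also on the list, rose in EV from a mean of 26.9 to 47.4 CPM, by 0.82 ± 0.20 (edgeR adjusted p = 0.00198). In WT and MUT, where DNMT3A includes vector reads, changes of 0.40 ± 0.18 and 0.20 ± 0.18 did not pass the test. The part of these genes in the rise of meiotic and piRNA members was not tested. In untreated cells 5 machinery genes were higher and 2 lower in MUT than in EV (9.88% and 10% of all genes), and 2 were higher and 2 lower in WT (4.3% and 7.36% of all genes). Both sets of higher genes include DNMT3A itself, at 4.09 in MUT and 2.31 in WT on the log2 scale. As the introduced gene, its calls follow from the construct.

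A second list held 76 other germline genes, of which 47 had a row and 39 were tested. Untreated MUT differed from EV in 5 upward and 4 downward, 23.1% of the 39 against 19.9% of all genes, and WT in 6 and 8, 35.9% against 11.7%. CTCFL, the germline paralogue of CTCF, was at 20.3 ± 0.73 CPM (SD, n = 3) in untreated EV, 5.30 ± 0.17 in WT and 0.512 ± 0.21 in MUT. Its log2 differences from EV, -1.94 ± 0.17 in WT (edgeR adjusted p = 2.96e-07) and -5.26 ± 0.24 in MUT (edgeR adjusted p = 3.77e-11), were further from 0 than that of any of the 23 tested members. PASD1 was lower in both lines too, at -7.23 ± 0.42 in WT and -4.82 ± 0.33 in MUT, and CTAG2, a cancer-testis antigen, was higher, at 0.73 ± 0.13 and 0.97 ± 0.13 (edgeR adjusted p up to 0.00095). With cytarabine 7, 7 and 10 of the 39 were higher and 9, 7 and 8 lower in EV, WT and MUT. The called shares, 41%, 35.9% and 46.2%, were below the 49.1%, 49% and 56.3% of all genes.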

How the data were processed

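Total RNA of U2OS lines was extracted and made into libraries with an NEBNext Ultra kit, per the labels. The submitters' processing notes name CASAVA, STAR 2.6.1d and hg38, with roles and order not given. The counting program and its strand setting are not given in the sources used here. The authors deposited estimated counts per gene, of which 70.9% are whole. Their deposited normalized signal table (19591 genes, 26 members) equals 1 plus a library factor times the estimated count, to a relative deviation of at most 7.33e-06, and it served as a scaling alternative only.

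Estimated counts were rounded and tested with edgeR 4.0.16 (R 4.3.3): TMM factors, filterByExpr, 1 mean per group over all 18 libraries, quasi-likelihood tests, and Benjamini-Hochberg adjustment over 18226 genes. A gene is called at an adjusted p under 0.05, and errors of log2 differences are standard errors. CPM values use TMM-scaled totals. Nothing says that the 3 replicates come from separate derivations, so p-values measure the spread between these libraries. The libraries differed by more than counting noise, with chi-square per degree of freedom of 2.45 to 46.8, and the common biological coefficient of variation was 0.104. On data simulated for MUT against untreated EV (17762 genes) the test recovered 63 of 100 genes changed 2-fold and 91 of 100 changed 4-fold, with 15 false calls. Only those genes were changed in the simulation, while 19.9% of tested genes were called between untreated MUT and EV. The recovery rates therefore need not hold for the data.

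The members and gene lists were chosen with earlier results of these data known, and roles, abundance limits and printed promoters after values were seen. Named genes are members called between lines, then with cytarabine, and fixed regulators. Promoters come from RefSeq (GRCh38.p14), and exon lengths from GENCODE. Promoters of TEX19, MAGEA1, TEX15, PIWIL4, PIWIL2, MEIOB, TEX14 and HORMAD1 were not used here. Alternatives were other scalings (including DESeq2 1.42.0), other filters, fits of only the groups compared, a replicate block and leaving out each library.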

Additional observations from a re-analysis of the deposited data

Results flagged for a closer look

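These results come from members outside the main test, in lines whose 3 untreated libraries all gave 0 counts. The rule, set after the values were seen, takes a treated sum above the 3 counts that a sum of 0 allows. MAEL had 21 estimated counts over the 3 cytarabine libraries of EV, 18 over those of WT and 13 over those of MUT. TEX15 had 17 in EV and 5 in WT, MEIOB 18 in EV and BOLL 9 in WT. MAEL met the rule in all 3 lines, and each of its treated libraries held at least 1 count.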

How the results depend on the processing

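Of 75 pairs of a named gene and a comparison with a call, 49 kept the call in every alternative run, and none reversed. Calls were lost in 102 of 966 repeats, 75 of them with a library left out and 11 with only the groups compared fitted. Counts of called members moved by over 1.5 times as follows: for MUT against EV untreated to 5 with the authors' factors and to 0 with only the groups compared, for MUT against WT untreated to 1 with only the groups compared, and for the difference of cytarabine response between MUT and WT to 1 with DESeq2 size factors and to 2 with the DESeq2 test. With 1 library left out, counts ran from 13 to 16 for cytarabine in EV, 11 to 12 in WT and 14 to 15 in MUT. Untreated, they ran from 4 to 7 for MUT against EV (4 without EV replicate 1), 3 to 5 for WT against EV and 2 to 4 for MUT against WT (2 without WT replicate 2 or 3). Treated, they ran from 2 to 4, 2 to 4 and 4 to 7 in the same order. Differences in response ran from 0 to 1 for MUT against EV, 0 to 0 for WT against EV and 0 to 2 for MUT against WT. The cause of these shifts was not tested. The replicate numbers did not pair the libraries: 45 same-number pairs correlated at -0.18 to 0.35 in their deviations, 7 of them over 0.1, and 8 of 18 libraries correlated best with their own number. With the replicate block the counts were 8, 4 and 4 untreated, 4, 4 and 8 treated, and 16, 12 and 15 for cytarabine. Depth limits the 16 members with few counts, and TEX14, REC8 and SYCE2 among those tested.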
